A study of Mus musculus with 8 samples.

Results

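The genes of the intestinal bile acid cycle were followed in RNAseq of mouse intestinal epithelial cells (IECs): Slc10a2, Fabp6, Slc51a, Slc51b, Fgf15, Nr1h4 and Nr0b2. They were found by gene symbol in the deposited tables of raw counts. These are 7 of the 40178 genes listed in either table, and the symbol of each occurs once per table. The ileum table lists all 7. The colon table lists 6, since Fgf15 has no row there and was taken as 0 counts in the 4 colon libraries. The study asked how loss of the RNA helicase DDX5 from the epithelium changes RNA levels. It compared WT mice, DDX5(+/+) with Vil1Cre(+), with DDX5KO mice, DDX5(fl/fl) with Vil1Cre(+), at 8 weeks of age. Both genotypes therefore carried the Cre, which the Villin1 promoter drives throughout the intestinal epithelium. The mice came as 2 cohoused littermate pairs, each with 1 WT and 1 DDX5KO animal, and the ileum and the colon of these 4 mice gave 8 libraries in 4 groups of 2. The cells were the fraction released by EDTA, so they were enriched for epithelium but not sorted.

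Bile acids are made in the liver, secreted into the gut to help absorb fat, and taken back in the ileum. There SLC10A2, the apical sodium-dependent bile acid transporter, brings them into the enterocyte, FABP6 binds them in the cytosol, and the heterodimer of SLC51A and SLC51B (OSTα and OSTβ) passes them to the portal blood. Inside the cell they activate the nuclear receptor FXR, the product of Nr1h4, which pairs with RXR. FXR raises FABP6, OSTα, OSTβ, the small heterodimer partner encoded by Nr0b2, and FGF15, a hormone that travels to the liver and lowers bile acid synthesis.

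FXR with RXR is known to bind an inverted repeat of the hexamer AGGTCA with a spacer of 1 base, written AGGTCANTGACCT. The RefSeq promoter table (GRCm38.p6) holds windows of 300 bases, from 250 before to 50 after the gene start, for 6 of the 7 genes, the exception being Fgf15. The sites most like the repeat are shown for these genes because 4 of them shared a higher level in the ileum than in the colon. Both strands were searched, which for this repeat is a single search because it reads the same on either strand. Capitals mark the 13 bases aligned to the repeat, with 8 bases on each side:
Slc10a2, chr8:5105457-5105485, minus strand: tgtggcttAGTTCATTATCATgtcaataa
Fabp6, chr11:43601764-43601792, minus strand: gagcagagAGGTGAATGACCAcactctgt
Fabp6, chr11:43601684-43601712, minus strand: tttccttaAGGTGAATAACCTtggggctc
Slc51a, chr16:32487938-32487966, minus strand: accacgtgAGGACTTTGTCCTtctcttct
Slc51b, chr9:65422940-65422968, minus strand: cattcgtgGGGTCATTCACCCtggactgg
Nr1h4, chr10:89506859-89506887, minus strand: catccgtgTGGCATTTGACCTccagccag
Nr0b2, chr4:133553145-133553173, plus strand: caatggccACTTCATTGACTAaagtgata
Nr0b2, chr4:133553311-133553339, plus strand: aggttgttTGGCCAGTCCCCTtcccgccc

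The Fabp6 window came closest, with a pair of sites that each missed 2 of the 12 fixed letters, 222 and 142 bases before the gene start. Of all 32851 windows in the table, 1.14% held a site at least that close. Slc51a and Slc51b missed 3 letters, a match that 11.4% of all windows reached. Slc10a2, Nr1h4 and Nr0b2 missed 4, a match that 56.4% of all windows reached. The hexamer itself, AGGTCA or TGACCT, was in the windows of Slc51a, Slc51b and Nr1h4 and in 16.3% of all windows. The windows of Nr1h4, Slc51b and Slc10a2 belong to RefSeq starts inside the gene models given below, deepest for Nr1h4. The Slc51b site spans the outer end of its gene model. These matches describe letters only, and binding was not measured here.

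In the GENCODE annotation of GRCm38, the build of mm10, the genes lie on 7 chromosomes. Slc10a2 (ENSMUSG00000023073.2) spans chr8:5083219-5105351, Fabp6 (ENSMUSG00000020405.4) chr11:43596049-43601540 and Slc51a (ENSMUSG00000035699.8) chr16:32474504-32487879. Slc51b (ENSMUSG00000053862.6) spans chr9:65412714-65422955 and Nr1h4 (ENSMUSG00000047638.15) chr10:89454234-89533585, and all of these are on the minus strand. Fgf15 (ENSMUSG00000031073.6), at chr7:144896531-144900953, and Nr0b2 (ENSMUSG00000037583.2), at chr4:133553376-133556536, are on the plus strand. Exons of genes on the other strand overlap those of Fgf15 (Gm26793 and Gm39119), Slc51a (Pcyt1a) and Slc51b (Rasl12). The libraries were stranded, but whether the counting used the strand is not given in the sources used here. Gm26793 had 0 to 5 counts per library and Rasl12 had 4 to 18, while Pcyt1a had 1001 to 2698, so reads of Slc51a and Pcyt1a over their shared exons may be hard to assign. At most 0.842% of the 50-base words of any of the 7 genes (Slc10a2) occurred in transcripts of another gene.

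Total counts per library ran from 11571061 to 22984283. Ddx5, the targeted gene, was at 700 and 700 CPM (counts scaled to a library of 1000000) in WT ileum against 340 and 326 in DDX5KO ileum, and at 771 and 706 in WT colon against 367 and 355 in DDX5KO colon. The DDX5KO level was 0.476 of WT in the ileum (adjusted p = 0.0270, edgeR's quasi-likelihood test) and 0.486 in the colon (adjusted p = 0.0866). The tissue labels matched the markers, since small intestine enterocyte markers summed to 9836 to 15647 CPM in the ileum and 174 to 316 in the colon, and colonocyte and colon region markers to 158 to 185 and 3352 to 4509. Among other cells, the T cell and leukocyte markers summed to 56.6 to 90.0 CPM in the ileum and 6.35 to 39.5 in the colon, B and plasma cell markers to at most 7.61, myeloid markers to at most 10.6, and stroma, muscle and endothelium markers to at most 15.0. The liver markers summed to 4092 to 5712 CPM in the ileum and 117 to 203 in the colon, most of it Apob, which enterocytes also make, while Ttr reached 27.1 CPM and Alb 1.05. There were 2 libraries that stood apart. In DDX5KO ileum replicate 2, Gm10800, Gm10801 and Gm21738, predicted genes of repeated sequence, took 19.5% of counts, while they took 0.000956% to 4.04% elsewhere. DDX5KO colon replicate 1 had 68.8 CPM of Hoxd13, a gene of the distal hindgut, against 18.9 to 21.7 in the other colon libraries.

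**Figure D1:**
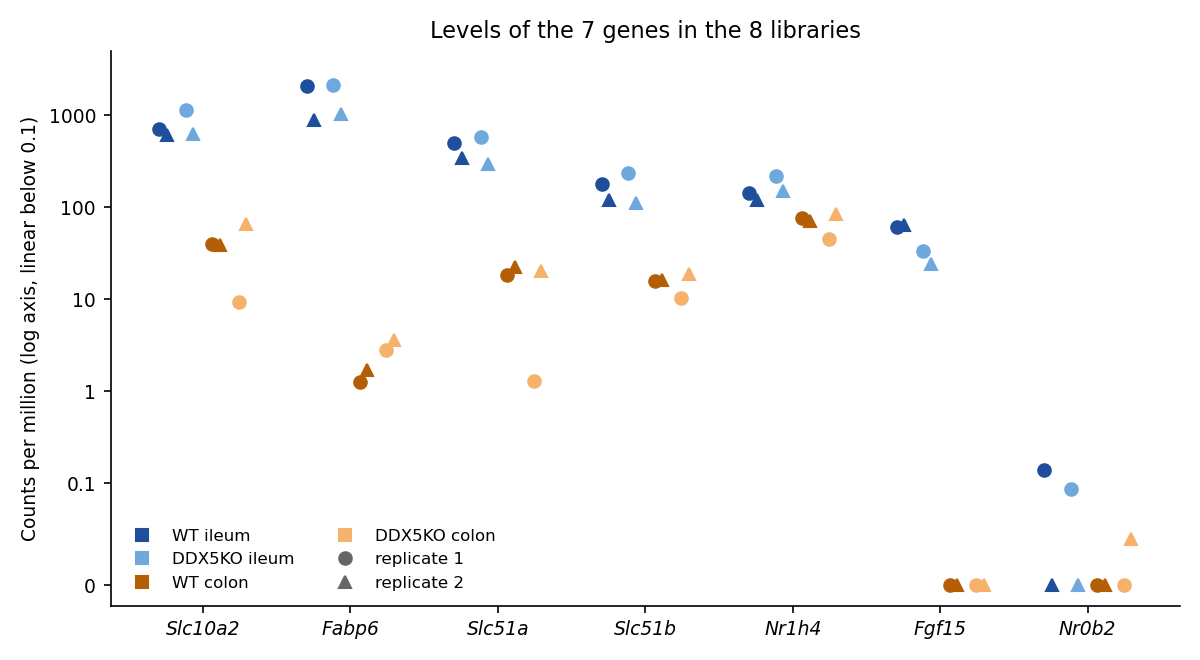
Level of each gene (x axis) in CPM on a log axis that is linear below 0.1, one point per library, coloured by group and shaped by replicate. Fabp6, Slc10a2, Slc51a and Slc51b sit far higher in the 4 ileum libraries than in the 4 colon libraries, Fgf15 is at 0 in the colon, and of the 5 genes with counts in both tissues Nr1h4 differs least.

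The ileum and the colon of WT mice were compared first, since bile acid uptake is a known property of the ileum. Of the 5 genes that passed the filter on low counts in each tissue, 4 were higher in WT ileum than in WT colon, and none was lower (edgeR's quasi-likelihood test, adjusted p under 0.05, n = 2 per group). Over all 13567 genes that passed in each tissue, 17.6% were higher in the ileum by the same rule and 16.0% lower. In both genotypes both ileum libraries lay above both colon libraries for each of the 5 genes, as they did for 36.8% of those genes in WT mice and 32.0% in DDX5KO mice. Fgf15 passed the filter through the ileum alone, so it had to differ and is left out of these counts. In bulk RNA of this kind, fewer cells of a type and less RNA per cell cannot be told apart.

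Slc10a2, the importer, measured 711 and 609 CPM in WT ileum and 39.9 and 39.0 CPM in WT colon. Its replicates agreed closely in either tissue, and the ileum was 16.8-fold higher (log2 ratio 4.07 ± 0.76 (SE), adjusted p = 0.00382). The colon level is not a trace, since it rested on 759 and 885 counts. Fabp6, the cytosolic carrier, measured 2089 and 892 CPM in WT ileum and 1.26 and 1.67 CPM in WT colon. This was the steepest fitted difference among the 5 genes that had counts in both tissues, a log2 ratio of 9.97 ± 0.65 (adjusted p = 1.59e-05), although the 2 ileum libraries differed 2.34-fold from each other. The colon libraries held 24 and 38 counts of it.

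The exporter subunits were higher in the ileum as well. Slc51a measured 493 and 337 CPM in WT ileum and 18.2 and 22.2 CPM in WT colon, a log2 ratio of 4.36 ± 0.90 (adjusted p = 0.00626). Slc51b measured 176 and 119 CPM in WT ileum and 15.8 and 15.9 CPM in WT colon, a log2 ratio of 3.22 ± 0.40 (adjusted p = 0.000470). The difference was not in equal proportion. Per length of transcript, the ratio of Slc51a to Slc51b was 0.621 and 0.631 in WT ileum against 0.256 and 0.309 in WT colon, so the WT groups did not overlap. The share of gene pairs with such ratios was not counted. Leaving out WT colon replicate 1 or 2 took the Slc51a call to adjusted p = 0.0626 and 0.0524.

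The receptor and its outputs differed in level and in how far they could be tested. Nr1h4 measured 142 and 120 CPM in WT ileum and 76.4 and 71.1 CPM in WT colon. Its log2 ratio of 0.83 ± 0.28 did not pass the test (adjusted p = 0.0516). The same gene passed with DESeq2 (adjusted p = 0.00913) and with edgeR without filtering on low counts (6.35e-06). It did not pass in the other 3 of 5 planned refits on all libraries, where edgeR's adjusted p reached 0.0673. With 1 library left out, its log2 ratio ran from 0.69 to 0.95. Fgf15, the hormone, measured 60.3 and 63.3 CPM in WT ileum and had no count in either WT colon library. Setting the lower ileum library against the level that 3 counts would give in the shallower colon library, the WT ileum was at least 382-fold higher. Nr0b2, the corepressor, had 3 and 0 counts in WT ileum and 0 and 0 in WT colon, too few to test, and a count of 0 is still compatible with up to 3.

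The difference between tissues was also present in DDX5KO mice. All 5 genes past the filter in each tissue were higher in DDX5KO ileum than in DDX5KO colon, against 18.0% of the 13567 genes. The log2 ratios were 8.96 ± 0.61 for Fabp6, 5.32 ± 0.95 for Slc51a, 4.56 ± 0.77 for Slc10a2, 3.57 ± 0.41 for Slc51b and 1.50 ± 0.29 for Nr1h4, with adjusted p from 2.22e-05 to 0.00427. Fgf15 was at least 146-fold higher. Leaving out DDX5KO colon replicate 1 lowered the ratios of Slc51a and Slc10a2 to 4.42 and 3.74, and leaving out DDX5KO colon replicate 2 raised them to 8.41 and 6.57.

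Compared per kilobase, the order of the levels depended on the tissue. In WT ileum Fabp6 stood first at 3112 ± 1766 CPM per kilobase (SD, n = 2), followed by Slc51b at 208 ± 57.5, Slc10a2 at 159 ± 17.4, Slc51a at 130 ± 34.5, Nr1h4 at 56.9 ± 6.93 and Fgf15 at 20.2 ± 0.710. Slc51b overlapped with Slc10a2, and Slc10a2 with Slc51a, so these neighbours did not differ beyond their spread. In WT colon Nr1h4 stood first at 32.0 ± 1.61 CPM per kilobase, then Slc51b at 22.3 ± 0.176, Slc10a2 at 9.49 ± 0.155, Slc51a at 6.32 ± 0.875 and Fabp6 at 3.06 ± 0.608, with no overlap between neighbours. The receptor thus measured higher than the transporter and carrier genes in WT colon, and lower than all of them in WT ileum.

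Other genes of the cycle were taken from lists of 58 genes, of which 39 passed the filter in each tissue. In WT mice 18 of the 39 were higher in the ileum and 10 lower, against 17.6% and 16.0% of all such genes. Another 6 passed the filter over all 8 libraries but not in each tissue's own fit, and are left out of the counts below. Among transporters of bile acids and sterols, 4 of 7 were higher and 3 lower. Abcc2, an apical exporter of conjugates, had a log2 ratio of 6.71 ± 0.37 (adjusted p = 7.50e-06) and Abcg8, a subunit of the sterol exporter, one of 5.11 ± 0.30 (9.36e-06). Among partners and factors known to act on ileal bile acid genes, 7 of 11 were higher and 1 lower, led by Maf at 6.25 ± 0.31 (4.52e-06) and Malrd1 at 4.91 ± 0.73 (0.00121). Malrd1 encodes DIET1, which promotes FGF15 production. None of 4 other bile acid sensors passed the test, with Nr1i3 at 0.65 ± 0.37 (0.219) and Vdr at 0.25 ± 0.12 (0.130).

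The genes of the FGF15 receptor complex could be tested between the tissues only in part. Klb, the coreceptor, measured 0.461 and 0.347 CPM in WT ileum and 9.98 and 7.70 in WT colon. Fgfr1 measured at most 1.25 CPM in any WT library. Klb passed the filter through the colon alone and Fgfr1 through the ileum alone, so no fold or test between tissues is given for either. Fgfr4, the main receptor of the hormone, passed the filter in both tissues. It was lower in WT ileum (log2 ratio -1.16 ± 0.32, adjusted p = 0.0238 by edgeR's quasi-likelihood test). In DDX5KO mice Fgfr4 did not pass that test (-0.70 ± 0.33, adjusted p = 0.142). Fgfr1 measured 0.375 and 1.61 CPM in DDX5KO ileum and 0.166 and 0.0912 in DDX5KO colon.

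Of 7 other genes known to respond to FXR, 2 were higher and 4 lower in WT ileum. C3 stood at -2.38 ± 0.31 (adjusted p = 0.000665), and Nos2 at 2.63 ± 1.00 did not pass (0.0760). Of 6 genes of bile acid synthesis and conjugation, 3 were higher and 1 lower, with Acox2 at 1.86 ± 0.38 (0.00596). Baat, which conjugates bile acids, measured 3.60 and 3.40 CPM in WT ileum and 0.210 and 0.220 in WT colon, and passed the filter through the ileum alone. Of 3 detoxification genes, 2 were higher, with Sult2b1 at 2.37 ± 0.23 (0.000123). Cyp3a11, a cytochrome of the same list, measured 1.38 and 1.67 CPM in WT ileum and 0.0525 and 0 in WT colon. With so few colon counts it passed the filter through the ileum alone, and no fold is given.

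Loss of DDX5 was then compared with WT in the ileum, with the replicate number as a block. Fgf15 was the only one of the 6 genes tested that passed, and it was lower in DDX5KO ileum. By the same rule 0.697% of all 14068 genes were called, and 0.32% were called lower. Fgf15 measured 60.3 and 63.3 CPM in WT ileum and 33.6 and 24.1 CPM in DDX5KO ileum, from 1306, 913, 359 and 225 counts. Both DDX5KO libraries lay below both WT libraries, a pattern shared by 20.8% of all genes. The log2 fold change was -1.11 ± 0.16 (SE), a fold of 0.464, with adjusted p = 0.0187 by edgeR's quasi-likelihood test. Within replicates 1 the DDX5KO level was 0.558 of WT and within replicates 2 it was 0.380. The size of the difference held across refits, from -1.15 to -1.09 with all 4 ileum libraries and from -1.37 to -0.86 with 1 library left out, but the call did not. The adjusted p was 0.305 without the replicate block and 0.0543 without the 3 repeat-like genes. It was 0.00608 with DESeq2 and the block and 0.00255 with DESeq2 and no block. The call was also lost in the fit of all 8 libraries, which had no block, and in fits of that kind with 1 library left out. Those fits differ from the main one in model as well as in libraries. With 2 libraries per group, an exact permutation test of one gene cannot give a p below 0.333.

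**Figure D2:**
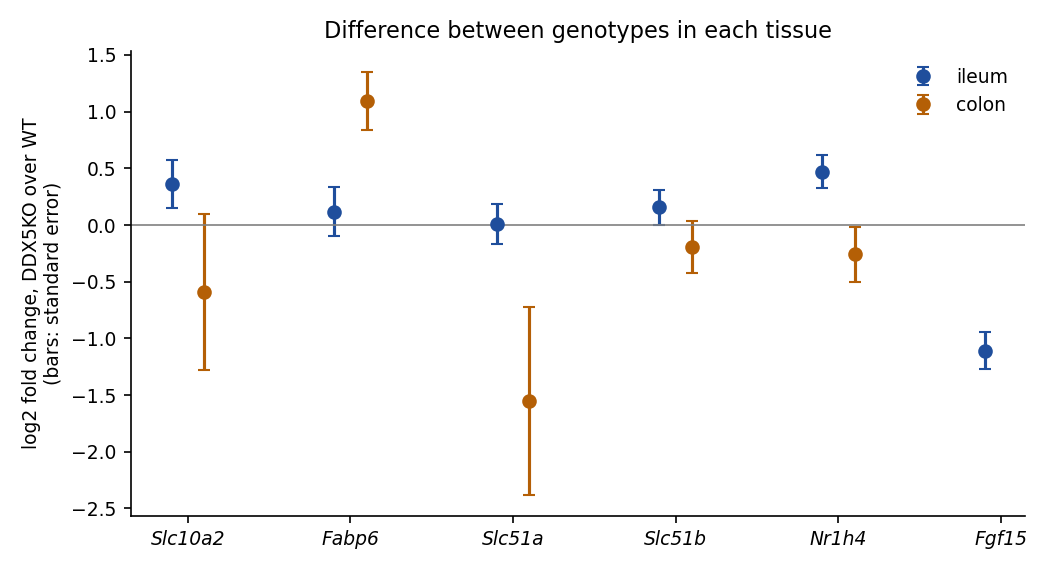
The log2 fold change of DDX5KO over WT (y axis, bars are standard errors) for each gene in the ileum and the colon, from edgeR's fit with the replicate block. Fgf15 in the ileum, at -1.11, is the only point whose adjusted p is under 0.05; the colon bars of Slc51a and Slc10a2 are wide, and Fgf15 has no colon point.

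The fall of Fgf15 can also be read against the other genes inside each library, which needs no scaling between libraries. Per 100 counts of Slc10a2 there were 8.47 and 10.4 counts of Fgf15 in WT ileum and 2.96 and 3.84 in DDX5KO ileum. Per 100 counts of Nr1h4 there were 42.3 and 52.9 in WT ileum and 15.3 and 16.3 in DDX5KO ileum. Against Fabp6 the values were 2.89 and 7.10 in WT and 1.57 and 2.36 in DDX5KO. In each case, and also against Slc51a and Slc51b, both DDX5KO values lay below both WT values. The share of all genes with such ratios was not counted, and the level of Fgf15 alone has this pattern along with 20.8% of all genes. The 5 comparison genes had log2 fold changes of 0.01 (Slc51a) to 0.47 (Nr1h4) in DDX5KO ileum, none of them called. A higher value of Nr1h4 or of Slc10a2 (0.36) in DDX5KO widens the gap in its ratio. These ratios share the counts of Fgf15 and are not independent of each other.

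**Figure D3:**
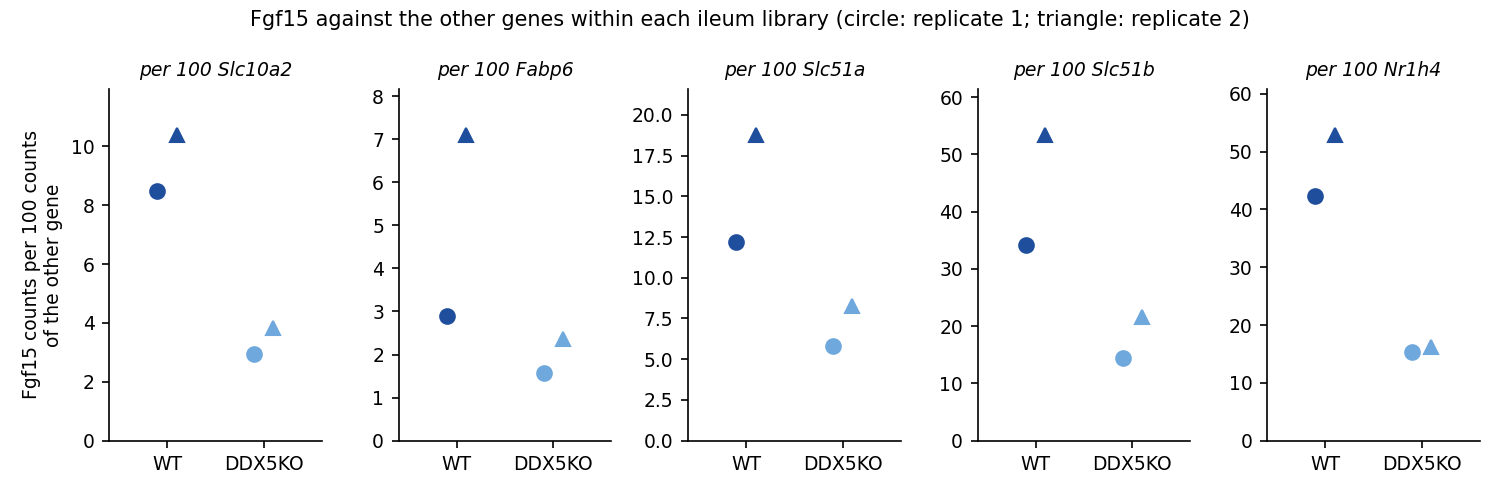
Fgf15 counts per 100 counts of each of 5 other genes (y axes start at 0) in the 2 WT and 2 DDX5KO ileum libraries, circles for replicate 1 and triangles for replicate 2. In every panel both DDX5KO libraries lie below both WT libraries, as with 15.3 and 16.3 against 42.3 and 52.9 per 100 counts of Nr1h4, which itself measured higher in DDX5KO ileum.

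The other FXR-responsive genes among the 7 gave different values. Fabp6 measured 2089 and 892 CPM in WT ileum and 2145 and 1022 in DDX5KO ileum, a log2 fold change of 0.12 ± 0.22 (adjusted p = 0.887). Slc51a measured 493 and 337 CPM in WT and 578 and 291 in DDX5KO ileum, and its log2 fold change was 0.01 ± 0.18 (0.995). Slc51b, at 176 and 119 CPM in WT and 232 and 111 in DDX5KO ileum, had one of 0.16 ± 0.16 (0.757). The genotypes overlapped for each of them, and the signs turned when some single libraries were left out. Per length, the ratio of Slc51a to Slc51b in DDX5KO ileum was 0.553 and 0.579, just below the WT values of 0.621 and 0.631, a pattern not counted over other gene pairs. Nr0b2 had 1 and 0 counts in DDX5KO ileum against 3 and 0 in WT ileum, which allows no comparison.

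The receptor and the importer measured higher in DDX5KO ileum without passing the test. Nr1h4 measured 142 and 120 CPM in WT ileum and 220 and 148 in DDX5KO ileum, so the genotypes did not overlap, as for 18.7% of all genes in that direction. Its log2 fold change was 0.47 ± 0.14 (unadjusted p = 0.00778 and adjusted p = 0.208 by edgeR's quasi-likelihood test). By the study's criterion, an unadjusted p under 0.05 with a log2 fold change of at least 0.5 either way, Fgf15 alone passed among the 6 genes, against 7.35% of all genes. Slc10a2 measured 711 and 609 CPM in WT ileum and 1137 and 627 in DDX5KO ileum, a log2 fold change of 0.36 ± 0.21 (adjusted p = 0.541). The higher value came from replicate 1, where DDX5KO was 1.60-fold WT, against 1.03-fold in replicate 2.

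Replicate number went with levels in the ileum. Fabp6 was 2.34-fold higher in replicate 1 than in replicate 2 of WT and 2.10-fold higher in DDX5KO, more than the genotypes differed. Only 0.668% of all genes tested were at least 2-fold higher in replicate 1 in both genotypes. Slc51a was 1.46-fold and 1.99-fold higher, and Slc51b 1.49-fold and 2.08-fold. Fgf15 did not follow, at 0.951-fold in WT and 1.40-fold in DDX5KO. Nos2, known as an FXR-responsive gene, was 6.64-fold and 7.54-fold higher in replicate 1. Of the same list, Akr1b7 and C3 were higher in replicate 1 of both genotypes too, but some others were not. Il18 measured 10.8 and 16.9 CPM in replicates 1 and 2 of WT ileum, and 20.6 and 17.8 in those of DDX5KO ileum. What distinguished the replicate numbers is not given in the sources used here, and their link to harvest or to the littermate pairs was not tested.

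**Figure D4:**
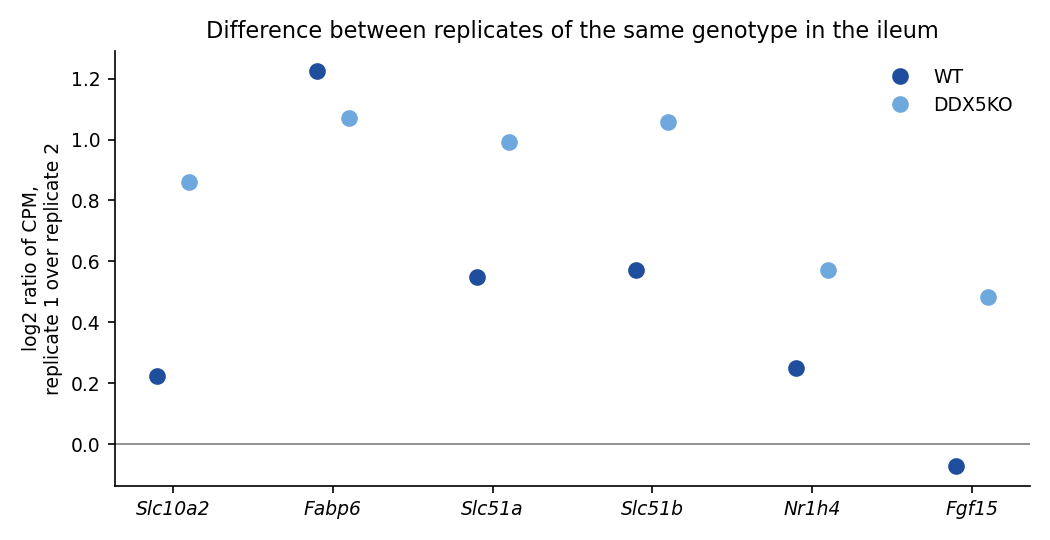
The log2 ratio of replicate 1 over replicate 2 in CPM (y axis) for each gene in WT and DDX5KO ileum, 1 point per genotype. Fabp6 lies above 1 in both genotypes, 1.23 and 1.07, while Fgf15 lies at -0.07 and 0.48.

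Some markers of cell type and position moved with the genotype in the ileum. Small intestine enterocyte markers summed to 11388 and 11452 CPM in WT and 9836 to 15647 in DDX5KO ileum. Tuft cell markers summed to 311 to 467 CPM in WT and 203 to 257 in DDX5KO ileum, where 4 of 4 were lower by the study's criterion, as were 3.48% of all genes, and Dclk1 by the adjusted p (0.0274). Enteroendocrine markers summed to 69.3 to 72.9 CPM in WT and 93.5 to 120 in DDX5KO ileum, with Chga higher (adjusted p = 0.0303). Proximal small intestine markers overlapped between the genotypes, at 48.5 and 95.8 CPM in WT and 48.9 and 39.1 in DDX5KO ileum, and of the 4 tested Fabp1 was lower (adjusted p = 0.0428) while 2 had positive and 1 other a negative log2 fold change. The part of these markers in the Fgf15 difference was not tested.

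Of the 58 other genes of the cycle, 42 were tested for genotype in the ileum, and 2 passed, against 0.697% of all genes. Both were higher in DDX5KO, and both are cytochromes of 1 family that oxidise bile acids and drugs. The median log2 fold change of the 42 was 0.05, against -0.0046 over all genes. Cyp3a11 measured 1.38 and 1.67 CPM in WT ileum and 9.37 and 6.42 in DDX5KO ileum (log2 fold change 2.39 ± 0.31, adjusted p = 0.00809). Cyp3a25 measured 2.91 and 1.67 CPM in WT and 11.1 and 5.57 in DDX5KO ileum (1.86 ± 0.26, 0.0151). Neither passed without the replicate block (0.305 and 0.456). Members of this gene family resemble each other, and 6.73% of the 50-base words of Cyp3a11 and 26.8% of those of Cyp3a25 occur in other genes, so their counts may be split.

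By the study's criterion 8 of the 42 passed, against 7.35% of all genes, 6 of them higher, the 2 cytochromes included, and 2 lower. Abcc2 measured 74.7 and 83.0 CPM in WT ileum and 160 and 104 in DDX5KO ileum (log2 fold change 0.72 ± 0.18, adjusted p = 0.126). Abcb1a, a drug exporter, stood at 0.64 ± 0.16 (0.124) and Il18 at 0.51 ± 0.21 (0.343). Cyp27a1, an enzyme of the alternative route of bile acid synthesis, measured 6.41 and 5.27 CPM in WT ileum and 16.6 and 6.53 in DDX5KO ileum (0.92 ± 0.26, 0.163), and only the first DDX5KO library stood clear of WT. Abcg8 at -0.55 ± 0.13 (0.112) and Abcc4 at -0.61 ± 0.23 (0.312) were lower by that criterion. Without DDX5KO ileum replicate 1 the values of Abcc2, Abcb1a and Cyp27a1 dropped to 0.39, 0.34 and 0.14, without WT ileum replicate 1 that of Il18 dropped to 0.19, and that of Abcg8 became -0.35 without WT ileum replicate 1 and -0.34 without DDX5KO ileum replicate 2. No other bile acid sensor, FXR partner or gene of the FGF15 receptor complex passed either rule, Nr1i2 being at 0.19 ± 0.14, Rxra at 0.15 ± 0.14 and Malrd1 at -0.21 ± 0.17.

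In the colon none of the 5 genes tested for genotype passed the adjusted threshold, and 0.0% of all 15362 genes did by edgeR's quasi-likelihood test, although 12.0% had an unadjusted p under 0.05. DESeq2 called none of the 5 either, and 112 genes in all. By the study's criterion 1 of the 5 was higher, Fabp6, against 3.04% of all genes. It measured 1.26 and 1.67 CPM in WT colon and 2.76 and 3.56 in DDX5KO colon, from 24, 38, 50 and 78 counts. Both DDX5KO libraries lay above both WT libraries, as for 23.8% of all genes, and the log2 fold change was 1.09 ± 0.26 (unadjusted p = 0.00852, adjusted p = 0.303). The DDX5KO level was 2.19-fold WT in replicate 1 and 2.13-fold in replicate 2. Even so, it was far below any ileum library.

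The other colon values turned on DDX5KO colon replicate 1. Slc51a measured 18.2 and 22.2 CPM in WT colon and 1.27 and 20.1 CPM in DDX5KO colon, from 347, 504, 23 and 442 counts. Slc10a2 measured 39.9 and 39.0 CPM in WT colon and 9.27 and 65.4 in DDX5KO colon. In both genes the first DDX5KO library was the lowest of the 4 and the second lay near or above WT. Their log2 fold changes were -1.55 ± 0.83 (adjusted p = 0.519) and -0.59 ± 0.69 (0.764). Without DDX5KO colon replicate 1, and with the lone DDX5KO library assumed to vary like the other groups, these became -0.0073 and 0.73. Without DDX5KO colon replicate 2 they became -3.99 (0.0223) and -2.09 (0.0434), and both passed.

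Slc51b, at 15.8 and 15.9 CPM in WT colon and 10.2 and 18.6 in DDX5KO colon, and Nr1h4, at 76.4 and 71.1 in WT and 45.3 and 84.4 in DDX5KO colon, were likewise lowest in DDX5KO colon replicate 1. Their log2 fold changes were -0.19 ± 0.23 (adjusted p = 0.765) and -0.26 ± 0.24 (0.703), and both turned positive without DDX5KO colon replicate 1, to 0.23 and 0.19. Fabp6 did not take part, and per length its ratio to Slc10a2 was 2.58 in DDX5KO colon replicate 1 against 0.274 to 0.471 in the other 3. The exporter subunits came apart in that library too, with a ratio of Slc51a to Slc51b per length of 0.0276 against 0.240 to 0.309 elsewhere in the colon.

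Other genes, among them markers of position along the gut, differed in the same library. Malrd1, counted above among factors that act on ileal bile acid genes, measured 2.43 CPM in DDX5KO colon replicate 1. It measured 15.1 to 20.0 in the other colon libraries. Of the 7 small intestine enterocyte markers, 3 were lowest in it, among them Sis, a sugar-digesting enzyme, at 0.386 against 4.67 to 12.2, but Mttp was highest, at 3.59 against 1.89 to 3.33, and the list summed to 174 CPM against 202 to 316. Hoxd13 measured 68.8 against 18.9 to 21.7, Hoxd10 4.75 against 1.50 to 1.84 and Hoxb13 282 against 159 to 195. The colonocyte and colon region markers as a list summed to 4086 CPM in that library, 4509 in DDX5KO colon replicate 2, and 3352 and 3580 in WT colon. Both DDX5KO sums thus lay above both WT sums. All 7 markers had a positive log2 fold change in DDX5KO colon, and 2 were higher by the study's criterion, against 3.04% of all genes. Car1 measured 1702 in DDX5KO colon replicate 1 against 2033 to 2962 in the other colon libraries. The part of the position of the sampled tissue in the bile acid gene values was not tested.

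**Figure D5:**
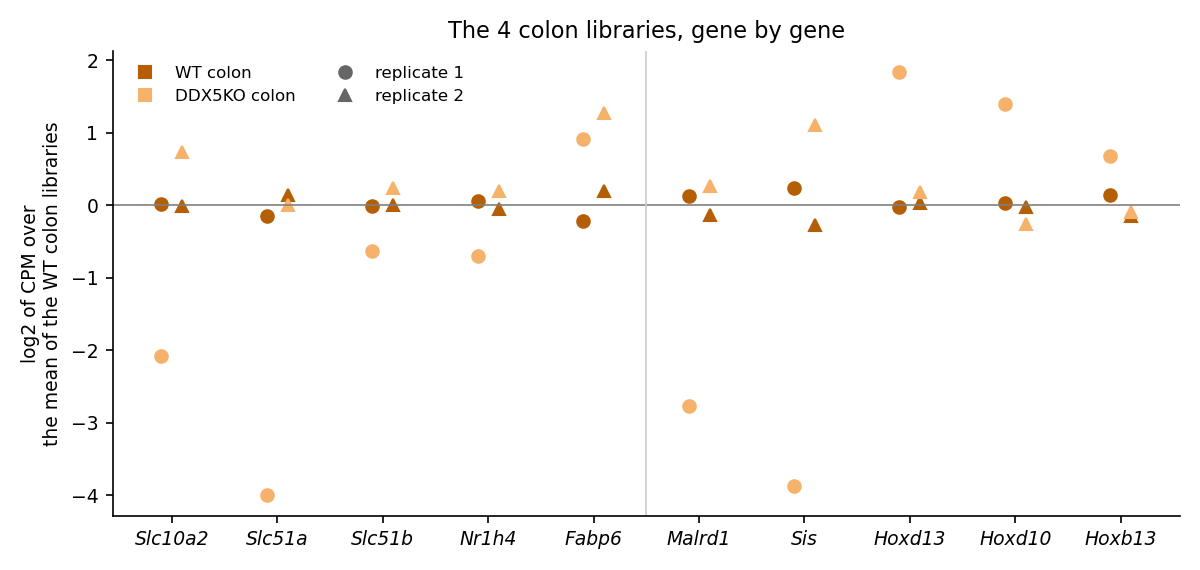
The log2 of each colon library's CPM over the mean of the 2 WT colon libraries (y axis), for 5 of the bile acid genes to the left of the line. To its right are Malrd1, a factor that acts on ileal bile acid genes, the enterocyte marker Sis, and the Hox genes of position. DDX5KO colon replicate 1 (light circles) is the lowest point for Slc10a2, Slc51a, Slc51b, Nr1h4, Malrd1 and Sis and the highest for Hoxd13, Hoxd10 and Hoxb13.

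Summed markers of some other cells did not overlap between the colon genotypes. T cell and leukocyte markers summed to 31.1 to 39.5 CPM in WT colon and 6.35 to 16.4 in DDX5KO colon. Goblet markers summed to 43158 to 48432 and 24540 to 38426, and tuft markers to 63.7 to 70.7 and 22.4 to 47.3. By the study's criterion 3 of 5, 2 of 5 and 4 of 4 of these were lower, and 1 goblet marker had a positive log2 fold change. Of all genes, 6.71% met that criterion in either direction, and the share of such sums was not counted. Paneth markers summed to 1391 to 1577 CPM in WT and 218 to 427 in DDX5KO colon. Of their 4 tested, 2 were lower by that criterion and 1 had a positive log2 fold change. Myeloid markers summed to 2.38 to 3.94 and 1.21 to 1.91. None of these markers passed the adjusted threshold. B and plasma cell markers were higher, at 1.10 to 1.73 CPM in WT and 2.04 to 7.06 in DDX5KO colon, while enteroendocrine and stroma sums overlapped. Epithelium markers were also higher, at 7845 to 8169 and 8459 to 9066, and liver markers at 117 to 127 and 151 to 203. The colonocyte and colon region sums given above were higher too. Of the 40 other genes of the cycle tested in the colon, none passed the adjusted threshold, and 7 met the study's criterion, 4 higher and 3 lower, against 6.71% of all genes. The higher ones were Abcc2 (log2 fold change 1.26 ± 0.34, adjusted p = 0.322), Abcg5 (1.02 ± 0.35, 0.378), Abcg8 (0.88 ± 0.23, 0.319) and Akr1b7 (1.01 ± 0.24, 0.307), an enzyme that detoxifies bile acids. Each of the 3 transporters reached its highest colon value in DDX5KO colon replicate 1, and without that library the values dropped to 0.72 for Abcc2, 0.34 for Abcg5 and 0.52 for Abcg8. Without DDX5KO colon replicate 2 Abcg5 rose to 1.69 and passed (adjusted p = 0.0223). The lower ones were C3 (-1.77 ± 0.19, 0.143), Nos2 (-1.43 ± 0.36, 0.318) and Cdx2 (-0.54 ± 0.15, 0.328), which was at -0.27 without DDX5KO colon replicate 1. For C3, the study reported binding of its RNA by DDX5 and lower transcript and protein in colonic IECs without DDX5.

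Whether the genotype acted differently in the 2 tissues was tested directly with the interaction term over all 8 libraries. None of the 5 genes with counts in both tissues passed, and 0.0124% of all 16178 genes did, a count of 2. At an unadjusted p under 0.05 none of the 5 passed either. The interaction, as the ileum log2 fold change less the colon one, was -1.01 ± 0.70 for Fabp6, 0.96 ± 1.14 for Slc51a, 0.67 ± 0.40 for Nr1h4, 0.49 ± 0.95 for Slc10a2 and 0.35 ± 0.53 for Slc51b, each with an adjusted p of 1.00. For Fgf15 it cannot be estimated, since the colon had no counts. With no filter on low counts, Fabp6 (adjusted p = 0.0340) and Slc51a (0.0173) passed, so the calls of these 2 genes depended on the filter. The edgeR fit without a filter gave far smaller p elsewhere too, as for Nr1h4 between the WT tissues (adjusted p = 6.35e-06 against 0.0516). Passing it is therefore weak ground for a call. DDX5KO colon replicate 1 held 23 counts of Slc51a and replicate 2 held 442. With 1 library left out, the Slc51a interaction ran from 0.069 to 4.06.

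Among the other genes of the cycle, 5 of the 39 past the filter in each tissue met the study's criterion for the interaction, against 3.74% of all such genes. Abcg8 (-1.47 ± 0.39, adjusted p = 0.956), Abcc4 (-1.04 ± 0.32, 0.991) and Ppargc1a (-0.70 ± 0.26) had negative values, and C3 (1.88 ± 0.47, 0.935) and Cdx2 (0.76 ± 0.32) positive ones. Pltp (1.66 ± 0.66), which did not pass the filter in each tissue's own fit, met it too. None passed after adjustment. Abcg8 measured 96.8 and 74.5 CPM in WT ileum and 67.1 and 49.9 in DDX5KO ileum, but 2.89 and 2.11 in WT colon and 5.91 and 3.56 in DDX5KO colon.

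Across the 8 libraries, the gene with the pattern most like each of the 6 was found by Pearson's r of log2 CPM, as a description. It was Lpin2 for Slc10a2 (r = 0.998), Mapk4 for Fabp6 (0.998), Tgm2 for Slc51a (0.996), Mgam for Slc51b (0.997), Map2k4 for Fgf15 (0.998) and Nemp1 for Nr1h4 (0.992), out of 16178 genes. These values rest mainly on the difference between the tissues, since the libraries form an ileum cluster and a colon cluster.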

How the data were processed

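RNAseq of ribosome-depleted RNA was analysed in 8 libraries. The authors aligned reads to mm10 with STAR 2.6.1a and deposited, per tissue, raw counts of uniquely mapped reads over GENCODE exons from featureCounts. The deposited tables also hold a normalized signal per library (counts divided by size factors from the authors' DESeq2 1.18.1), not tested here, and the authors' own comparison (log2 fold change, standard error, statistic, p and adjusted p), not used. No per-sample column was left out otherwise. A gene listed in only one table was counted as 0 in the other.

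Counts were filtered with filterByExpr (minimum count 10), scaled by TMM and tested with edgeR 4.0.16 (quasi-likelihood) in R 4.3.3, with Benjamini-Hochberg adjustment over all genes tested. An adjusted p under 0.05 counted as a call. Genotype was tested within a tissue, blocking on the replicate number, since a harvest covariate was part of the authors' design. The fits of tissue and of the interaction used the 8 libraries with no block. Calls between tissues are counted over genes that passed the filter in each tissue's own fit. CPM are on the TMM scale of the 8 libraries, fold changes within a tissue on that of its 4 libraries. Same-numbered libraries of the 2 tissues come from the same mouse by the study's mouse numbers. The deviations of same-numbered WT and DDX5KO libraries correlated at 0.168 in the ileum and -0.006 in the colon, and those of a mouse's 2 tissues at 0.156 (WT) and 0.165 (DDX5KO). Alternatives were no block, DESeq2 1.42.0, RLE, no filter, no repeat-like genes, all 8 libraries, a mouse block, and each library left out. The floor for a count of 0 is 3 counts and covers counting error only.

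The genes and lists were chosen with earlier results of these data known. All 7 members are named in every library. Other genes are named where they passed in a genotype comparison or the interaction, by the adjusted p or else the study's criterion, plus at most the 2 largest tissue ratios of each list. Genes named beyond this rule, chosen after their values were seen, are Fgfr4, Nr1i2, Rxra, Malrd1 in genotype comparisons, Sis, Mttp, Alb, Ttr, Apob, Car1, Dclk1, Chga, Fabp1 and the Hox genes. The scripts were tested on simulated data. Python 3.11.15 made the tables.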

Additional observations from a re-analysis of the deposited data

How the results depend on the processing

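Every direction of Fgf15 in the ileum and of the 5 genes with counts in both tissues between them was kept in all refits. Genes called in the ileum went from 98 to 1 with no replicate block, 36 with DESeq2 and the block, 54 with DESeq2 and no block, 423 without a filter, 20 without the repeat-like genes, 7 in the fit of all 8 libraries, and 0 to 1 with 1 library left out. The member called there, Fgf15, was lost (0 members) with no replicate block, without the repeat-like genes and with all 8 libraries. It was also lost in each fit that left out a library. Those fits cover the 4 groups of both tissues with no block, like the fit of all 8 libraries. They thus differ from the main fit in model as well as in libraries, and the cause of the loss was not tested. The colon count of 0 became 5 with no replicate block, 112 and 175 with DESeq2 with and without it, 10 with all 8 libraries, and 0 to 193 with 1 library left out; members called there were 0 to 2, the 2 without DDX5KO colon replicate 2. Between the WT tissues the 5528 genes became 3153 to 6231 with 1 library left out. The interaction count of 2 became 210 without a filter (2 members), 1 with the mouse as a block, 17 with DESeq2, and 0 to 30 with 1 library left out. The mouse block changed no call of the 7 genes between tissues.

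Signs turned in uncalled values. With 1 library left out, the ileum values ran from -0.084 to 0.80 for Slc10a2, -0.55 to 0.82 for Fabp6, -0.52 to 0.49 for Slc51a and -0.42 to 0.67 for Slc51b, turning negative without DDX5KO ileum replicate 1 and, for the other genes, without WT ileum replicate 2. Slc51a was -0.030 without a filter. The colon values ran from -2.09 to 0.73 for Slc10a2, -0.64 to 0.23 for Slc51b and -0.71 to 0.19 for Nr1h4, turning positive without DDX5KO colon replicate 1. The interaction ran from -0.31 to 2.51 for Slc10a2, -0.29 to 0.86 for Slc51b and -0.10 to 0.027 for Ddx5.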
